A study of Mus musculus with 12 samples.

Results

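Genes of the proteasome, the protease that degrades ubiquitin-tagged proteins, were followed in mouse ear fibroblasts cultured on hydrogels of different stiffness and viscoelasticity. The members were all genes of the deposited count table whose symbol starts with Psm, a letter from a to g and a digit. The pattern took 56 of the 33246 genes listed, of which 5 pseudogenes were left out. Of the remaining 51 genes, Psmc3ip and Psme3ip1 encode partner proteins and not subunits, so 49 genes were kept as proteasome genes and both partners were set apart. The members comprised 14 genes of the constitutive core particle, 17 of the regulatory particle, 3 catalytic subunits of the immunoproteasome, 5 activator genes, 1 inhibitor, 7 assembly chaperones and 2 core genes known from single tissues.

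The cells were primary fibroblasts of the ear of C57BL/6 mice aged 1 month, of both sexes, used at passage 2, and 500000 cells were kept on each gel for 48 h. All gels were alginate carrying the adhesion peptide RGD. The 4 groups of 3 samples were elastic gels of 2 kPa, slow-relaxing viscoelastic gels of 2 kPa, elastic gels of 20 kPa and slow-relaxing viscoelastic gels of 20 kPa. Elastic gels were crosslinked covalently and viscoelastic gels ionically with calcium, so viscoelasticity and the kind of crosslink changed together and cannot be told apart. The study calls the samples of a group biological replicates, and the labels do not say whether they came from separate animals or cultures, so p-values measure the spread between these samples.

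The proteasome is a barrel-shaped core particle with a regulatory particle on one or both ends. The core stacks rings of alpha subunits, which gate the entrance, and rings of beta subunits, of which Psmb5, Psmb6 and Psmb7 carry the chymotrypsin-like, caspase-like and trypsin-like active sites. The regulatory particle consists of a base with ATPases, which unfold the substrate, and a lid, which removes ubiquitin. In cells exposed to interferon, Psmb8, Psmb9 and Psmb10 replace Psmb5, Psmb6 and Psmb7 to form the immunoproteasome, whose peptides feed antigen presentation. The activator of Psme1 and Psme2 belongs to the same response, and the transcription factor NFE2L1 raises subunit genes together when proteasome activity falls short.

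Start regions are shown for the catalytic genes Psmb5 and Psmb6, their immunoproteasome counterparts Psmb8 and Psmb9 and the activator gene Psme1, since the results turn on how these genes differ. They come from RefSeq (build GRCm38.p6), run 5′ to 3′ on the strand of the gene from 120 bases before to 30 bases after the annotated start, and have motif matches in capitals: the antioxidant response element core TGACNNNGC (Psmb5 and Psmb6), a gamma-activated site TTCNNNGAA (Psmb8), a CCAAT box read on the other strand (Psmb9) and an interferon-stimulated response element core GAAANNGAA read on the other strand (Psme1).
Psmb5, chr14:54617966-54618115 on the minus strand: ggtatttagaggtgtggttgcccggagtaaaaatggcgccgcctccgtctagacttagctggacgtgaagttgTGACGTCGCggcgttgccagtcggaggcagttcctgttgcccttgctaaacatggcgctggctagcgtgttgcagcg
Psmb6, chr11:70525237-70525386 on the plus strand: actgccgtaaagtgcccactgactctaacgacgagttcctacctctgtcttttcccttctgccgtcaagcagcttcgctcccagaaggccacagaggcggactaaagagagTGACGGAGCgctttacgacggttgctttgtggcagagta
Psmb8, chr17:34198075-34198224 on the plus strand: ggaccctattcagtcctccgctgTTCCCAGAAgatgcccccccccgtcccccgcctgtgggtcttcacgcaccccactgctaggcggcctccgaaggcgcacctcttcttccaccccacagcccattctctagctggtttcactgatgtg
Psmb9, chr17:34187301-34187450 on the minus strand: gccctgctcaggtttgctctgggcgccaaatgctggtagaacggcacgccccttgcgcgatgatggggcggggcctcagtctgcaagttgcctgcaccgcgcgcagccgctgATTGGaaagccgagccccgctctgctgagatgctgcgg
Psme1, chr14:55578374-55578523 on the plus strand: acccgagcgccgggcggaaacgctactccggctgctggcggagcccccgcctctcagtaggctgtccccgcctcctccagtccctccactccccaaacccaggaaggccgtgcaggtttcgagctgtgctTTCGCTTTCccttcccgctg

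The 4 motifs were searched on both strands in windows of 300 bases, from 250 before to 50 after the start, which were present for 41 of the 49 members. The antioxidant response element core was in 6 of the 41 member windows (14.6%) and in 12.4% of all 32851 windows, the CCAAT box in 14 (34.1%) and 37.4%, the interferon-stimulated response element core in 6 (14.6%) and 8.56%, and the gamma-activated site in 3 (7.32%) and 8.30%. Among the core genes, 6 of 11 windows held a CCAAT box, and among the regulatory particle genes 4 of 14 did. The antioxidant response element core was in 2 of the 11 core windows. Of the 3 immunoproteasome windows, 0 held the interferon-stimulated response element core and 1, that of Psmb8, the gamma-activated site. The window of Psmb10, whose start region is not shown, held none of the 4 motifs. In Psmb5 and Psmb6 the antioxidant response element core began 47 and 9 bases before the start. In Psmb8 the gamma-activated site began 97 bases before it. These are matches of letters and not shown to be binding sites.

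Depth was even, with 36626221 to 43612804 counts per sample. Mitochondrial genes took 1.77% to 3.34% of a sample in all 4 groups. All 9 fibroblast markers were present, at a sum of 23716 to 29252 CPM (counts scaled to the normalized size of each library). Between elastic and viscoelastic gels of 20 kPa, 4 of them rose (Dcn by 0.75 and Lum by 0.70 on the log2 scale, and Col3a1 and Vim by 0.26 and 0.24) and Thy1 fell by 0.53. The 3 markers of cartilage cells, Col2a1, Acan and Sox9, were also abundant, at a sum of 3791 to 5265 CPM, with the range of 20-kPa elastic gels (3791 to 3882 CPM) below that of 2-kPa elastic gels (4133 to 5265 CPM) and overlapping that of 20-kPa viscoelastic gels (3800.2 to 5034 CPM). The part of these markers in the differences of the members was not tested. The 7 leukocyte markers summed to 5.42 to 9.45 CPM, the 4 endothelial markers to 1.98 to 3.504 CPM, the 4 keratinocyte markers to 2.64 to 4.71 CPM, the 4 skeletal muscle markers to 0.0934 to 0.384 CPM, the 3 melanocyte markers to 0.690 to 1.26 CPM and the 3 Schwann cell markers to 2.33 to 4.22 CPM. In bulk RNA, fewer cells of a type and less RNA per cell cannot be told apart.

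On the stiffer gels, viscoelasticity went with higher RNA of the proteasome core. Comparing viscoelastic with elastic gels at 20 kPa, 12 of 14 constitutive core genes rose, by 1.12- to 1.246-fold, together with Psmb9 of the immunoproteasome, the activator genes Psme1 and Psme2, the inhibitor Psmf1 and the chaperone Psmd9. The activator Psme4 and the scaffold subunit Psmd2 fell. Of 17 regulatory particle genes 3 rose and 1 fell. In all, 20 of 48 members tested rose and 2 fell (edgeR quasi-likelihood test, Benjamini-Hochberg adjusted p under 0.05), where 17.4% of all 14542 tested genes rose and 16.1% fell. The median log2 fold change was 0.15 over the members and 0.02 over all genes. Leaving out each sample in turn gave 13 to 23 called members, with 13 without 20-kPa viscoelastic replicate 3, and 12 calls held in all 12 fits: Psma2, Psma3, Psma4, Psma7, Psmb1, Psmb2, Psmb6, Psmb9, Psme1, Psme2, Psmf1 and Psmd9.

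At 2 kPa, fewer members differed between viscoelastic and elastic gels. The core genes Psma3, Psma4, Psma5, Psma7 and Psmb1, the ATPase gene Psmc6 and the activator gene Psme1 rose, and Psme4 fell. In all, 7 of 48 members rose and 1 fell, where 8.77% of all genes rose and 11.1% fell. The median was 0.07 over the members and 0.00 over all genes. Of the 8 called members, 7 were also called at 20 kPa, all in the same direction (87.5% of the calls at 2 kPa and 31.8% of those at 20 kPa), and these comparisons share no sample. Of all 2892 genes called at 2 kPa, 1394 were called in the same direction at 20 kPa (48.2% of the calls at 2 kPa and 28.6% of those at 20 kPa). Leaving out each sample in turn gave 3 to 9 called members, with 3 without 2-kPa elastic replicate 1, 4 without 2-kPa elastic replicate 2 or 2-kPa viscoelastic replicate 2, and 5 without 2-kPa elastic replicate 3 or 2-kPa viscoelastic replicate 3. The calls of Psma3, Psmb1 and Psmc6 held in all 12 of these fits.

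Few members passed the test between 2 and 20 kPa. On elastic gels, the regulatory particle genes Psmc6 and Psmd14 and the chaperone gene Psmd5 rose from 2 to 20 kPa and Psmb9 fell. These 3 rising members of 48 stand beside 6.81% of all genes that rose, and the 1 falling member beside 7.14% that fell. All 4 calls were lost in at least 2 of the 12 fits that left out a sample, and no member was called without 2-kPa elastic replicate 1 or 2, and 1 without 2-kPa elastic replicate 3 or 20-kPa elastic replicate 2 or 3. On viscoelastic gels, only the core genes Psma4 and Psma7 rose and no member fell, where 1.58% of all genes rose and 0.695% fell. At an unadjusted p under 0.05, 30 of the 48 members differed between the viscoelastic gels, beside 2768 of all 14542 genes. For 46 of 48 members the value lay above 0, beside 7541 of all genes, with a median of 0.14 (0.01 over all genes). DESeq2 called 7 members higher and none lower, and its share over all genes is not given here. Both calls were lost in most fits that left out a sample: 10 of these 12 fits called 0 or 1 member, the exceptions being those without 20-kPa elastic replicate 3 (2 members) and without 20-kPa viscoelastic replicate 2 (3 members).

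The difference between both stiffness effects (viscoelastic minus elastic) was called for Psmb9 alone, as a higher value. Across all genes, 4.45% had a higher and 3.12% a lower stiffness effect on viscoelastic gels. The 14 core genes had a median difference of 0.08 on the log2 scale with no call by edgeR or DESeq2 and none at an unadjusted p under 0.05, so a stiffness effect that depends on viscoelasticity was not shown for them. Each pair of these comparisons other than the comparisons at 2 and at 20 kPa, or on elastic and on viscoelastic gels, shares a group of samples.

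**Figure D1:**
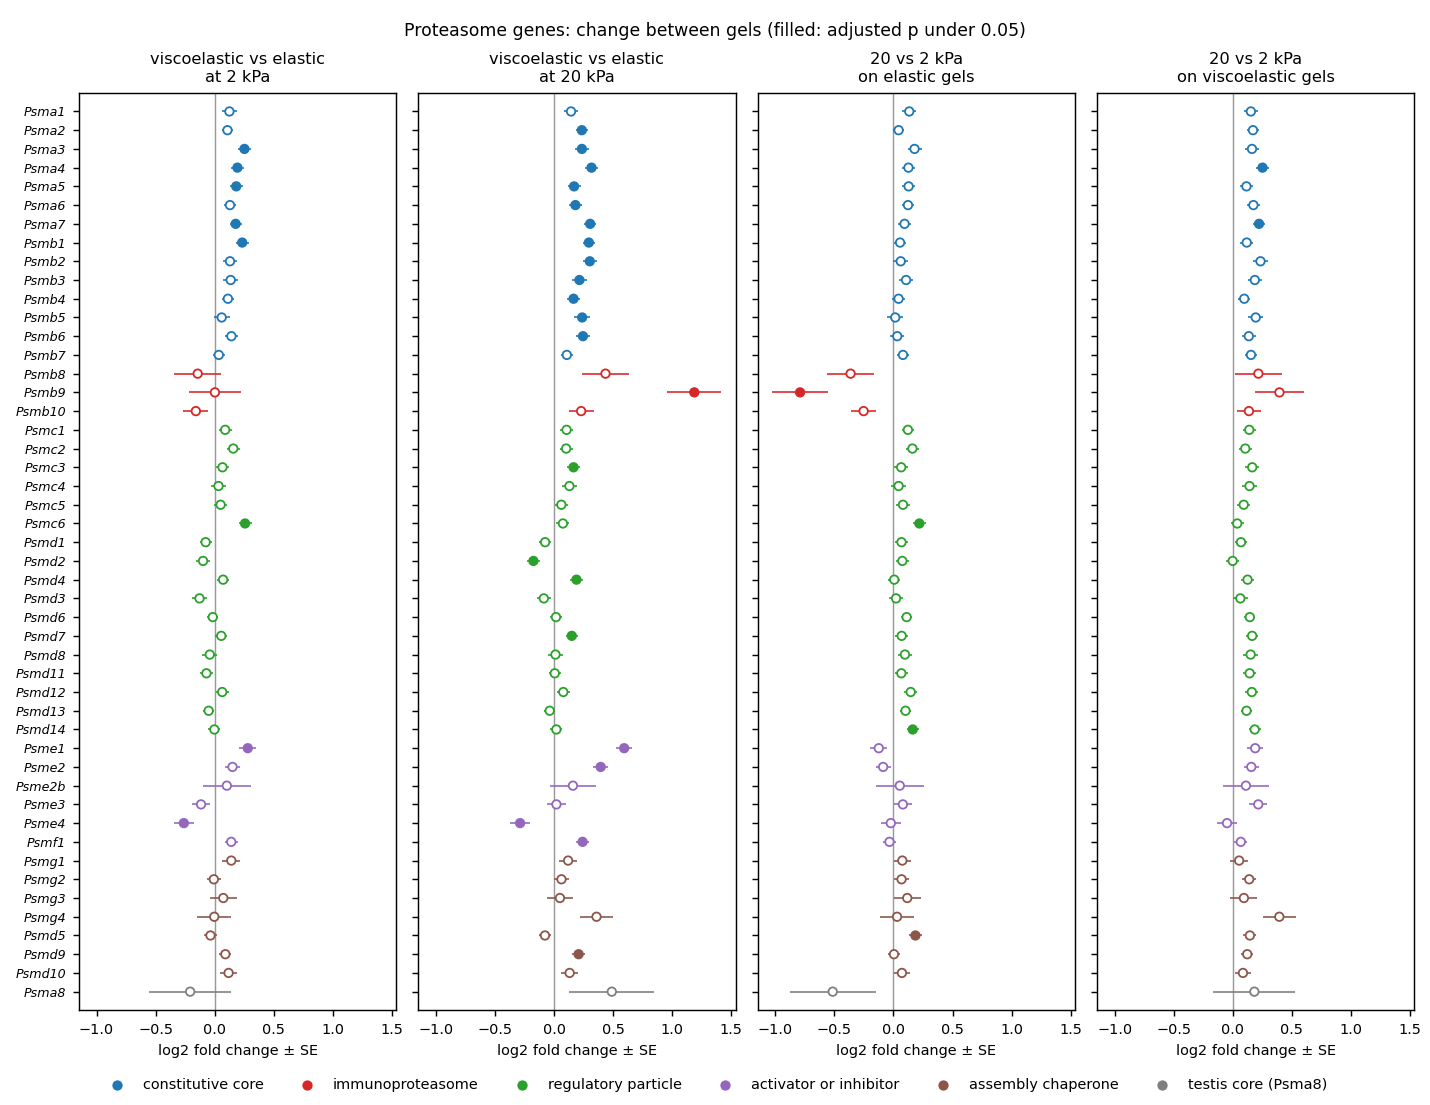
Log2 fold change with its standard error for the 48 members tested in the 4 comparisons of 2 groups, colored by role, with filled points for an adjusted p under 0.05. At 20 kPa all 14 core genes lie right of 0 and 12 are filled, while the regulatory particle genes lie on both sides, and Psmb9 lies at 1.19 at 20 kPa and at -0.79 from 2 to 20 kPa on elastic gels.

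Transcript length moved with these differences. Over the 14323 tested genes of known length, Spearman's rho between the log2 fold change and the length of the principal transcript was -0.33 at 2 kPa and -0.34 at 20 kPa for viscoelastic against elastic gels, -0.24 for 20 against 2 kPa on viscoelastic gels and -0.08 on elastic gels (across genes, which are not independent replicates). The principal transcript had a median of 1162.5 bases over the core genes, 1636 over the regulatory particle genes and 2950 over all tested genes. With this length as an offset, an alternative chosen after seeing the data, 8 members rose and 2 fell at 20 kPa, with a median of -0.01 over the members and 0.01 over the core genes. Psma2, Psma3 and Psmb1 were then the core genes still called, beside Psmb9, Psme1, Psme2, Psmf1 and Psmd9, and Psmd2 and Psmd3 fell. With the summed exon length as an offset, 10 members rose and 1 fell, with a median of 0.02 over the members and 0.09 over the core genes, of which Psma2, Psma3, Psma4, Psma7 and Psmb1 were called. At 2 kPa, 4 members rose and 1 fell with the principal transcript offset, and 6 rose and none fell with the exon length offset. The shares of all genes called with these offsets are not given here, so these counts cannot be set against all genes. Beyond these offsets, the part of length in the differences was not tested.

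**Figure D2:**
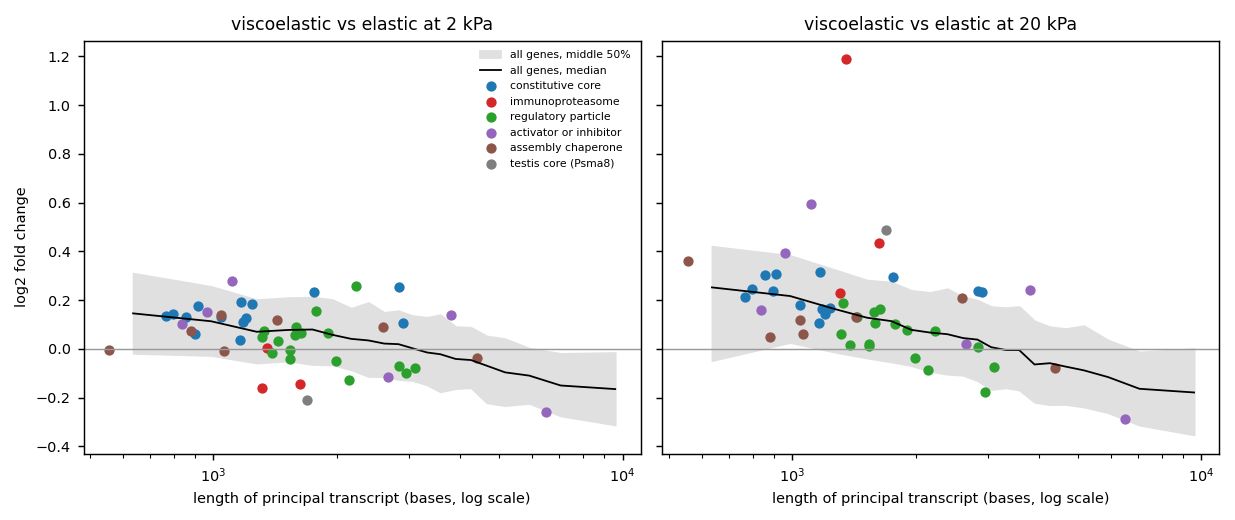
Log2 fold change of viscoelastic against elastic gels against the length of the principal transcript (log axis) for the 48 members, colored by role, with the median (line) and the middle 50% (band) of all tested genes in 20 bins of length. The line falls from short to long genes, and most core genes lie near it. At 20 kPa Psmb9 (1.19), Psme1 (0.59) and Psmf1 (0.24) are among the members above the band.

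The core and the regulatory particle, whose proteins are joined in the assembled protease, differed in how their RNA was spread over the gels. Summed over the 14 core genes, the level was 886 to 908 CPM on 2-kPa elastic, 973 to 1025 CPM on 2-kPa viscoelastic, 946 to 968 CPM on 20-kPa elastic and 1091 to 1157 CPM on 20-kPa viscoelastic gels. The 4 ranges did not overlap. Summed over the 17 regulatory particle genes, the level was 1951 to 1995 CPM on 2-kPa elastic, 1965 to 2046 CPM on 2-kPa viscoelastic, 2071 to 2143 CPM on 20-kPa elastic and 2095 to 2185 CPM on 20-kPa viscoelastic gels, so that ranges overlapped between elastic and viscoelastic gels but not between 2 and 20 kPa. Its parts differed. On elastic and viscoelastic gels, the ATPase genes summed to 666 to 688 and 703 to 775 CPM at 2 kPa. At 20 kPa they summed to 719 to 751 and 787 to 803 CPM. The other base genes were lower on viscoelastic gels, with 505 to 524 and 485 to 502 CPM at 2 kPa. At 20 kPa they had 532 to 555 and 489 to 523 CPM. The lid genes had 768.8 to 785 and 765 to 768.6 CPM at 2 kPa and overlapped at 20 kPa. The core sum was 45.6% ± 0.482 (SD, n = 3) of the regulatory sum on 2-kPa elastic, 49.96% ± 0.372 on 2-kPa viscoelastic, 45.3% ± 0.987 on 20-kPa elastic and 52.1% ± 0.833 on 20-kPa viscoelastic gels. The lowest viscoelastic sample (49.5%) lay above the highest elastic sample (46.1%). These sums weigh abundant genes most and carry no offset for length. The core genes are the shorter ones, and shorter genes tended to have higher log2 fold changes on viscoelastic against elastic gels. The part of length in the shift of the core sum against the regulatory sum was not tested. Given per kilobase of the principal transcript, levels lay close together, with a median of 67.2 CPM per kilobase over the core genes (18.6 for Psma3 to 97.4 for Psma7) and 61.8 over the regulatory particle genes (35.0 for Psmd11 to 95.3 for Psmc3), against 1.02 over the 3 immunoproteasome genes.

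**Figure D3:**
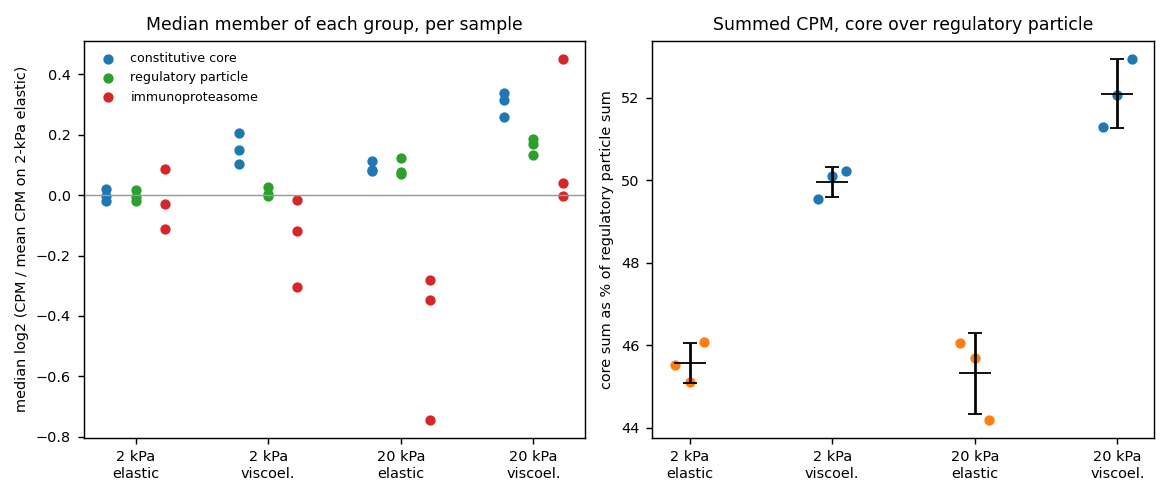
Left, for each of the 12 samples, the median over the genes of a group of the log2 ratio of CPM to the mean on 2-kPa elastic gels, for the core (14 genes), the regulatory particle (17) and the immunoproteasome (3). Right, the summed CPM of the core as a percent of that of the regulatory particle, with the mean ± SD of 3 samples; the elastic samples lie at or below 46.1% and the viscoelastic samples at or above 49.5%.

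The 7 alpha subunits form the outer rings of the core. Psma4 was at 94.8, 92.98 and 95.4 CPM on elastic and 102, 113 and 109 CPM on viscoelastic gels of 2 kPa. Psma4 measured 104, 100.004 and 105 CPM on elastic and 124, 125 and 137 CPM on viscoelastic gels of 20 kPa. The 3 samples on 20-kPa viscoelastic gels were above all others, and Psma4 rose on viscoelastic gels at 20 kPa (log2 fold change 0.32 ± 0.06 (SE), edgeR adjusted p = 0.000851) and at 2 kPa (0.19 ± 0.06 (SE), adjusted p = 0.0272), and from 2 to 20 kPa on viscoelastic gels (0.25 ± 0.06 (SE), adjusted p = 0.0363). Psma7 was at 77.5, 79.7 and 79.4 CPM on elastic and 86.02, 90.4 and 91.1 CPM on viscoelastic gels of 2 kPa. Psma7 measured 85.2, 83.8 and 83.5 CPM on elastic and 102, 100.4 and 109.6 CPM on viscoelastic gels of 20 kPa. It followed the same order, with log2 fold changes of 0.31 ± 0.05 (SE) at 20 kPa (edgeR adjusted p = 0.000585), 0.18 ± 0.05 (SE) at 2 kPa (adjusted p = 0.02598) and 0.22 ± 0.05 (SE) between viscoelastic gels (adjusted p = 0.0387).

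Psma3 was at 47.8, 43.9 and 44.7 CPM on elastic and 51.2, 56.7 and 54.6 CPM on viscoelastic gels of 2 kPa. Psma3 measured 51.3, 50.1 and 53.04 CPM on elastic and 59.05, 59.01 and 63.8 CPM on viscoelastic gels of 20 kPa, and its elastic and viscoelastic samples did not overlap at either stiffness, with log2 fold changes of 0.25 ± 0.06 (SE) at 2 kPa (edgeR adjusted p = 0.00805) and 0.24 ± 0.06 (SE) at 20 kPa (adjusted p = 0.00671). Psma2, whose span overlaps the gene AW209491 on the same strand without shared exons, was at 90.96, 88.2 and 92.6 CPM on elastic and 98.03, 98.7 and 96.1 CPM on viscoelastic gels of 2 kPa. Psma2 measured 94.1, 95.4 and 90.6 CPM on elastic and 110.4, 109 and 110.3 CPM on viscoelastic gels of 20 kPa. Its 20-kPa viscoelastic samples were close to each other and above the other 9, and it rose at 20 kPa by 0.23 ± 0.05 (SE) (edgeR adjusted p = 0.00213). Psma5, the lowest of the alpha genes by CPM, was at 26.3, 26.9 and 28.2 CPM on elastic and 30.9, 31.7 and 29.7 CPM on viscoelastic gels of 2 kPa. Psma5 measured 29.8, 29.5 and 29.6 CPM on elastic and 34.2, 31.97 and 33.9 CPM on viscoelastic gels of 20 kPa, and rose at 2 kPa (0.18 ± 0.05 (SE), edgeR adjusted p = 0.0293) and at 20 kPa (0.17 ± 0.05 (SE), adjusted p = 0.0265).

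Psma6 ranged from 81.7 CPM on 2-kPa elastic to 105 CPM on 20-kPa viscoelastic gels and rose at 20 kPa by 0.18 ± 0.05 (SE) (edgeR adjusted p = 0.0168). Psma1 was at 72.1, 75.6 and 81.8 CPM on elastic and 81.5, 89.1 and 79.6 CPM on viscoelastic gels of 2 kPa. Psma1 measured 85.6, 81.9 and 84.3 CPM on elastic and 90.8, 91.4 and 95.9 CPM on viscoelastic gels of 20 kPa. It was the alpha gene with the smallest difference at 20 kPa and was not called there (log2 fold change 0.14 ± 0.06 (SE), edgeR adjusted p = 0.08097). With an offset for either length, the values of Psma5 and Psma6 at 20 kPa were below 0 and not called.

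Psmb1 to Psmb4 are beta subunits without an active site. Psmb1 was at 106, 105 and 105 CPM on elastic and 122, 125 and 124 CPM on viscoelastic gels of 2 kPa. Psmb1 measured 115, 108 and 106 CPM on elastic and 133, 129 and 141 CPM on viscoelastic gels of 20 kPa. It rose at 2 kPa (0.23 ± 0.05 (SE), edgeR adjusted p = 0.00734) and at 20 kPa (0.29 ± 0.05 (SE), adjusted p = 0.000932), and both calls held under every alternative. Psmb2 was at 59.05, 55.8 and 53.6 CPM on elastic and 58.8, 61.5 and 64.1 CPM on viscoelastic gels of 2 kPa. Psmb2 measured 61.1, 57.3 and 57.4 CPM on elastic and 75.4, 67.2 and 74.2 CPM on viscoelastic gels of 20 kPa, higher on 20-kPa viscoelastic gels than in all other samples, and rose at 20 kPa by 0.30 ± 0.06 (SE) (edgeR adjusted p = 0.00191).

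Psmb3 was at 32.2, 30.3 and 32.1 CPM on elastic and 31.7, 36.8 and 35.4 CPM on viscoelastic gels of 2 kPa. Psmb3 measured 33.3, 34.98 and 33.7 CPM on elastic and 38.5, 39.6 and 40.2 CPM on viscoelastic gels of 20 kPa. Viscoelastic samples exceeded elastic ones at 20 kPa by 0.21 ± 0.06 (SE) (edgeR adjusted p = 0.0139). Psmb4 was at 89.5, 81.7 and 84.7 CPM on elastic and 93.4, 94.1 and 88.9 CPM on viscoelastic gels of 2 kPa. Psmb4 measured 87.97, 88.7 and 87.1 CPM on elastic and 97.1, 100.1 and 98.4 CPM on viscoelastic gels of 20 kPa and had the smallest difference of these 4 genes at 20 kPa (0.16 ± 0.05 (SE), edgeR adjusted p = 0.0235). With either length offset, none of Psmb2, Psmb3 and Psmb4 was called at 20 kPa.

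Of the constitutive catalytic subunits, Psmb5, which carries the chymotrypsin-like site, was at 22.9, 20.6 and 19.96 CPM on elastic and 22.01, 22.9 and 21.2 CPM on viscoelastic gels of 2 kPa. Psmb5 measured 21.9, 21.4 and 20.8 CPM on elastic and 26.3, 23.9 and 25.4 CPM on viscoelastic gels of 20 kPa. Samples overlapped between elastic and viscoelastic gels at 2 kPa (log2 fold change 0.06 ± 0.07 (SE), edgeR adjusted p = 0.568) and not at 20 kPa, where it rose by 0.24 ± 0.07 (SE) (adjusted p = 0.0125). Psmb6, with the caspase-like site, was at 51.3, 50.6 and 46.6 CPM on elastic and 51.8, 55.3 and 56.7 CPM on viscoelastic gels of 2 kPa. Psmb6 measured 51.6, 51.6 and 48.6 CPM on elastic and 61.4, 57.7 and 60.8 CPM on viscoelastic gels of 20 kPa, and rose at 20 kPa by 0.24 ± 0.06 (SE) (edgeR adjusted p = 0.00494). Psmb7, with the trypsin-like site, was at 53.8, 52.5 and 53.4 CPM on elastic and 55.6, 55.2 and 52.8 CPM on viscoelastic gels of 2 kPa. Psmb7 measured 57.5, 54.9 and 56.5 CPM on elastic and 61.8, 58.5 and 61.6 CPM on viscoelastic gels of 20 kPa. The 20-kPa viscoelastic samples lay just above the 20-kPa elastic ones (58.5 to 61.8 against 54.9 to 57.5 CPM), and the difference was not called (0.11 ± 0.05 (SE), edgeR adjusted p = 0.106). With either length offset, none of the 3 genes was called at 20 kPa.

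The immunoproteasome counterparts were scarce. Psmb9, the counterpart of Psmb6, had 21 to 64 counts per sample and was at 0.976, 1.004 and 0.961 CPM on elastic and 0.794, 1.13 and 1.03 CPM on viscoelastic gels of 2 kPa. Psmb9 measured 0.7002, 0.479 and 0.518 CPM on elastic and 1.38, 1.51 and 0.978 CPM on viscoelastic gels of 20 kPa. Its 20-kPa elastic samples were below all 9 others, and 2 of 3 samples on 20-kPa viscoelastic gels were above all others, the remaining one being within the range of the 2-kPa samples. Psmb9 rose on viscoelastic gels at 20 kPa (log2 fold change 1.19 ± 0.23 (SE), a fold of 2.28, edgeR adjusted p = 0.00133), the largest change of any member, while at 2 kPa the value was 0.00 ± 0.22 (SE) (adjusted p = 0.996). From 2 to 20 kPa it fell on elastic gels by 0.79 ± 0.24 (SE) on the log2 scale (adjusted p = 0.03801) and was 0.39 ± 0.21 (SE) on viscoelastic gels (adjusted p = 0.329).

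The difference of these stiffness effects was 1.18 ± 0.32 (SE) for Psmb9 (edgeR adjusted p = 0.0337). The rise at 20 kPa held under all 22 alternatives (log2 fold change 1.04 to 1.35). The fall on elastic gels was not called without 2-kPa elastic replicate 1, 2 or 3 or 20-kPa elastic replicate 2 or 3 (adjusted p = 0.0778 to 0.129). The difference of effects was not called without any one of these 5 samples, 2-kPa viscoelastic replicate 1 or 20-kPa viscoelastic replicate 1 or 2 (adjusted p = 0.0578 to 0.0899). Psmb9 lies beside Tap1, a subunit of the peptide transporter for antigen presentation, on the opposite strand, with 212 bases of exons in common, and Tap1 had a log2 fold change of 0.10 ± 0.11 (SE) at 20 kPa (adjusted p = 0.509). The summed leukocyte markers were 6.36 to 7.94 CPM on 20-kPa elastic, 5.42 to 6.71 CPM on 20-kPa viscoelastic and 6.94 to 9.45 CPM on 2-kPa elastic gels. Their part in the levels of Psmb9 was not tested.

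Psmb8, the counterpart of Psmb5, lies near Psmb9 in the major histocompatibility region (chr17:34197721-34201454 and chr17:34181987-34187764) and was at 1.95, 1.64 and 1.73 CPM on elastic and 1.495, 1.63 and 1.69 CPM on viscoelastic gels of 2 kPa. Psmb8 measured 1.61, 1.46 and 1.06 CPM on elastic and 1.64, 2.42 and 1.53 CPM on viscoelastic gels of 20 kPa. A single sample, 20-kPa viscoelastic replicate 2 (2.42 CPM), was above the other 11, and the remaining samples of that group lay within the 2-kPa range. The direction was that of Psmb9, with 0.44 ± 0.20 (SE) for viscoelastic against elastic gels at 20 kPa, but the groups overlapped and no comparison was called (edgeR adjusted p = 0.107 at 20 kPa and 0.242 for the difference of stiffness effects). Psmb10, the counterpart of Psmb7 and the most abundant of the 3, was at 7.66, 6.39 and 7.603 CPM on elastic and 5.75, 6.51 and 7.13 CPM on viscoelastic gels of 2 kPa. Psmb10 measured 5.67, 6.38 and 6.11 CPM on elastic and 7.42, 6.61 and 7.27 CPM on viscoelastic gels of 20 kPa. The 20-kPa elastic samples were below the 3 on 20-kPa viscoelastic gels, and no comparison of Psmb10 was called (0.23 ± 0.11 (SE) at 20 kPa, edgeR adjusted p = 0.108). Psmb8 shares 498 bases of exons with the antisense gene Gm20496, the span of Psmb10 overlaps the antisense gene Gm16156 without shared exons, and the strand setting of the counting was not given in the sources used here.

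Set against its constitutive counterpart, per kilobase, Psmb9 was 1.17% ± 0.0472 (SD, n = 3) of Psmb6 on 2-kPa elastic, 1.06% ± 0.150 on 2-kPa viscoelastic, 0.659% ± 0.130 on 20-kPa elastic and 1.27% ± 0.2995 on 20-kPa viscoelastic gels. Psmb8 was 4.63% ± 0.202, 4.03% ± 0.342, 3.55% ± 0.650 and 4.12% ± 1.28 of Psmb5 on the same gels in that order. Psmb10 was 11.99% ± 1.06, 10.5% ± 1.40, 9.53% ± 0.784 and 10.4% ± 0.319 of Psmb7. The mean was lowest on 20-kPa elastic gels for all 3 pairs, and in no sample did a counterpart exceed 12.6% of its constitutive gene.

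**Figure D4:**
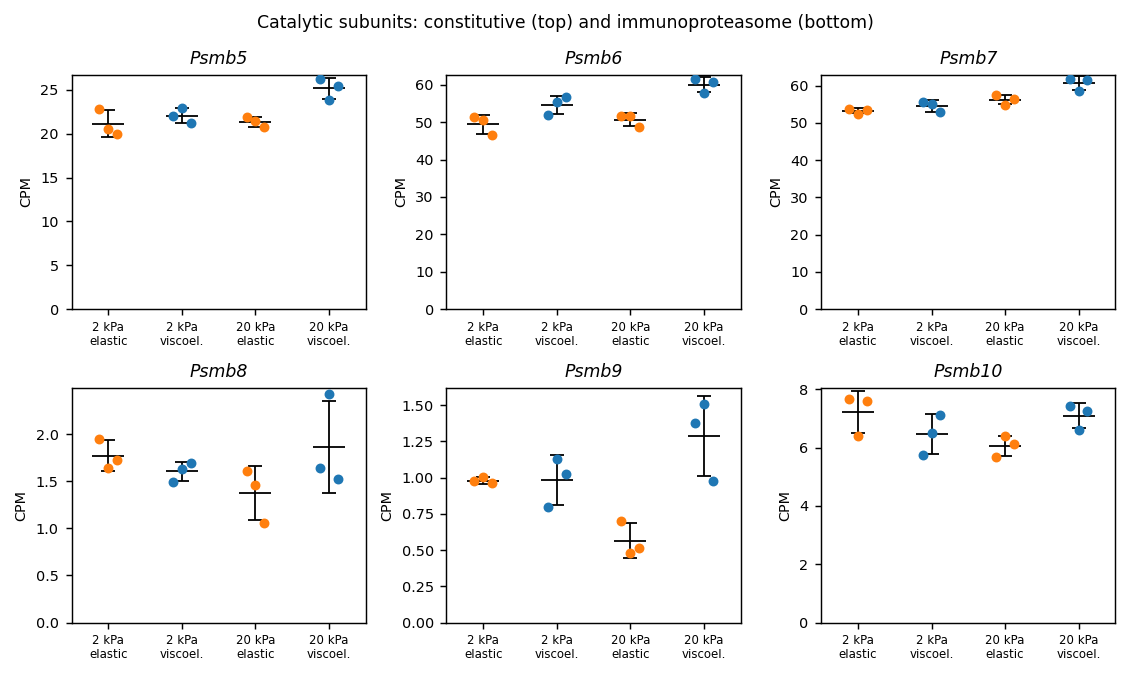
CPM of the 6 catalytic subunit genes in each sample (points, 3 a group) with mean ± SD, each axis from 0. The constitutive genes differ less in fold between groups than Psmb9, with Psmb5 and Psmb6 called higher on 20-kPa viscoelastic than on 20-kPa elastic gels. Psmb9 lies at 0.479 to 0.700 CPM on 20-kPa elastic and at 0.978 to 1.51 CPM on 20-kPa viscoelastic gels.

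The 6 ATPases of the base, Psmc1 to Psmc6, form the ring that pulls substrates into the core. Psmc6 was at 117, 119 and 124 CPM on elastic and 146, 149.8 and 135 CPM on viscoelastic gels of 2 kPa. Psmc6 measured 143, 137 and 139 CPM on elastic and 144, 147 and 149.6 CPM on viscoelastic gels of 20 kPa. The 3 samples on 2-kPa elastic gels were below all 9 others, so that Psmc6 rose on 2-kPa viscoelastic gels (0.26 ± 0.05 (SE), edgeR adjusted p = 0.00479) and on 20-kPa elastic gels (0.22 ± 0.05 (SE), adjusted p = 0.0156) but had a value of 0.08 ± 0.05 (SE) at 20 kPa (adjusted p = 0.3099). Its call on elastic gels was lost without 2-kPa elastic replicate 1 or 2 (adjusted p = 0.0704 and 0.0583). Psmc3 was at 151, 143 and 144 CPM on elastic and 143, 160.3 and 155 CPM on viscoelastic gels of 2 kPa. Psmc3 measured 161, 148 and 149.5 CPM on elastic and 174, 169 and 172 CPM on viscoelastic gels of 20 kPa, and rose at 20 kPa by 0.16 ± 0.06 (SE) (edgeR adjusted p = 0.0404), a call that was lost in 7 of the 12 fits without a sample (adjusted p up to 0.144).

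Psmc4 was at 89.7, 82.6 and 81.9 CPM on elastic and 77.8, 94.003 and 88.2 CPM on viscoelastic gels of 2 kPa. Psmc4 measured 86.99, 87.9 and 87.1 CPM on elastic and 96.3, 95.1 and 95.3 CPM on viscoelastic gels of 20 kPa, with the lowest of all samples on 2-kPa viscoelastic gels, and was not called at 20 kPa (0.13 ± 0.06 (SE), edgeR adjusted p = 0.137). Psmc5, the ATPase with the smallest difference at 20 kPa, was at 95.6, 87.7 and 89.2 CPM on elastic and 91.1, 101 and 90.6 CPM on viscoelastic gels of 2 kPa. Psmc5 measured 95.8, 95.4 and 96.96 CPM on elastic and 101, 98.2 and 102 CPM on viscoelastic gels of 20 kPa (0.06 ± 0.06 (SE), adjusted p = 0.423). Psmc1 and Psmc2 ran from 121 to 145 and from 112 to 139 CPM, and neither was called in any comparison.

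Psmd1 and Psmd2 are the large scaffold subunits of the base, and Psmd4 is a ubiquitin receptor. Psmd2, the most abundant member by CPM, was at 253, 250.1 and 239 CPM on elastic and 236, 231 and 227 CPM on viscoelastic gels of 2 kPa. Psmd2 measured 254, 259 and 269 CPM on elastic and 244, 218 and 232 CPM on viscoelastic gels of 20 kPa. It fell on viscoelastic gels at 20 kPa by 0.17 ± 0.06 (SE) on the log2 scale (edgeR adjusted p = 0.0283), with no overlap between the groups, and the call was lost without 20-kPa elastic replicate 2 or 3 or 20-kPa viscoelastic replicate 2 or 3 (adjusted p = 0.0676 to 0.122). It held with both length offsets. Psmd1 ran from 179.6 to 209.7 CPM and had the same direction at both stiffnesses without a call (-0.08 ± 0.05 (SE) at 2 kPa, -0.08 ± 0.05 (SE) at 20 kPa). Psmd4 was at 77.7, 76.2 and 76.1 CPM on elastic and 78.5, 84.6 and 78.5 CPM on viscoelastic gels of 2 kPa. Psmd4 measured 78.05, 76.1 and 76.8 CPM on elastic and 88.5, 84.1 and 90.9 CPM on viscoelastic gels of 20 kPa and rose at 20 kPa by 0.19 ± 0.05 (SE) (edgeR adjusted p = 0.01196). The call of Psmd4 was lost without 20-kPa viscoelastic replicate 3 (adjusted p = 0.0573) and with either length offset.

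The lid genes among the members lay close to 0 between elastic and viscoelastic gels, with a median log2 fold change of -0.03 at 2 kPa and 0.01 at 20 kPa over these 8 genes. Psmd7, the partner of the deubiquitinase subunit, was at 136, 136 and 135 CPM on elastic and 143, 137 and 142 CPM on viscoelastic gels of 2 kPa. Psmd7 measured 138, 141 and 147 CPM on elastic and 159, 150.5 and 164 CPM on viscoelastic gels of 20 kPa. Of these 8 genes, which do not include the lid subunit gene Sem1, it was the only one that rose at 20 kPa (0.15 ± 0.05 (SE), edgeR adjusted p = 0.0393). This call was lost in 7 of the 12 fits without a sample (adjusted p up to 0.170) and with either length offset. Psmd14, the deubiquitinase itself, was at 97.1, 97.3 and 103 CPM on elastic and 98.5, 101 and 97.3 CPM on viscoelastic gels of 2 kPa. Psmd14 measured 112, 108 and 113 CPM on elastic and 115, 109 and 114 CPM on viscoelastic gels of 20 kPa. Its value between gels at 20 kPa was 0.02 ± 0.05 (SE) and rose from 2 to 20 kPa on elastic gels (0.16 ± 0.05 (SE), edgeR adjusted p = 0.0451), a call lost in 9 of the 12 fits without a sample (adjusted p up to 0.148). On viscoelastic gels its value was 0.19 ± 0.05 (SE) (adjusted p = 0.06604).

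Psmd3, a structural lid subunit, was at 90.8, 86.6 and 80.7 CPM on elastic and 73.4, 83.7 and 79.1 CPM on viscoelastic gels of 2 kPa. Psmd3 measured 87.3, 86.4 and 88.4 CPM on elastic and 85.9, 80.6 and 80.3 CPM on viscoelastic gels of 20 kPa. It had the lowest lid value at 2 kPa (-0.13 ± 0.06 (SE), edgeR adjusted p = 0.154) and at 20 kPa (-0.09 ± 0.06 (SE), adjusted p = 0.294). Psmd12 was at 90.2, 90.7 and 91.9 CPM on elastic and 91.8, 100.3 and 92.98 CPM on viscoelastic gels of 2 kPa. Psmd12 measured 106, 96.7 and 99.6 CPM on elastic and 106, 102 and 111 CPM on viscoelastic gels of 20 kPa. Psmd13 was at 76.1, 76.4 and 74.7 CPM on elastic and 71.7, 75.7 and 71.9 CPM on viscoelastic gels of 2 kPa. Psmd13 measured 81.4, 81.4 and 81.1 CPM on elastic and 80.1, 76.97 and 80.6 CPM on viscoelastic gels of 20 kPa. For Psmd13 all 20-kPa samples were above all 2-kPa samples, for Psmd12 they overlapped, and neither was called in any comparison. Psmd6, Psmd8 and Psmd11 ran from 74.1 to 84.6, from 103 to 129 and from 93.2 to 108 CPM, also without a call.

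Psme1 and Psme2 encode the activator that caps the core in place of the regulatory particle and that interferon raises. They lie near each other on chromosome 14 (chr14:55578123-55581529 and chr14:55587441-55591113). Psme1 was at 40.7, 40.98 and 43.01 CPM on elastic and 45.8, 54.2 and 51.5 CPM on viscoelastic gels of 2 kPa. Psme1 measured 41.1, 36.96 and 36.3 CPM on elastic and 54.5, 60.2 and 57.9 CPM on viscoelastic gels of 20 kPa. All 3 samples on 20-kPa viscoelastic gels were above the other 9, and the 2-kPa viscoelastic samples were above all elastic ones. Psme1 rose at 20 kPa (0.59 ± 0.07 (SE), a fold of 1.51, edgeR adjusted p = 0.000105) and at 2 kPa (0.28 ± 0.07 (SE), a fold of 1.21, adjusted p = 0.01203). The rise at 20 kPa held under every alternative. At 2 kPa the call was lost without 2-kPa elastic replicate 1 (adjusted p = 0.0545) and with the principal transcript offset (adjusted p = 0.0719). The difference of stiffness effects for Psme1 was 0.31 ± 0.10 (SE) and did not pass (adjusted p = 0.0693).

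Psme2 was at 29.7, 27.1 and 26.6 CPM on elastic and 30.04, 30.9 and 31.7 CPM on viscoelastic gels of 2 kPa. Psme2 measured 27.9, 26.2 and 24.4 CPM on elastic and 34.04, 34.2 and 34.98 CPM on viscoelastic gels of 20 kPa. Its samples did not overlap between elastic and viscoelastic gels at either stiffness, with a rise at 20 kPa (0.39 ± 0.06 (SE), a fold of 1.31, edgeR adjusted p = 0.000391) that held under every alternative, and 0.15 ± 0.06 (SE) at 2 kPa (adjusted p = 0.104). Psme2b, a single-exon copy that may share reads with Psme2, was at 0.769 to 1.38 CPM and was not called.

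Psme3 encodes the nuclear activator. It was at 94.1, 94.5 and 88.6 CPM on elastic and 90.3, 74.2 and 91.4 CPM on viscoelastic gels of 2 kPa. Psme3 measured 91.7, 99.3 and 102 CPM on elastic and 103, 91.6 and 103 CPM on viscoelastic gels of 20 kPa, with the lowest sample on 2-kPa viscoelastic gels, and was not called in any comparison (0.02 ± 0.08 (SE) at 20 kPa, edgeR adjusted p = 0.867, and 0.22 ± 0.08 (SE) between viscoelastic gels, adjusted p = 0.149). Psme4, a large activator of a single chain, moved in the direction opposite to Psme1. It was at 135, 134 and 132 CPM on elastic and 125, 96.5 and 114 CPM on viscoelastic gels of 2 kPa. Psme4 measured 119, 142 and 134 CPM on elastic and 115, 100.3 and 108 CPM on viscoelastic gels of 20 kPa. The viscoelastic samples were below the elastic ones at both stiffnesses, and Psme4 fell at 2 kPa by 0.26 ± 0.09 (SE) on the log2 scale (edgeR adjusted p = 0.0466) and at 20 kPa by 0.29 ± 0.09 (SE) (adjusted p = 0.0199). Psme4 has the longest principal transcript of the members, 6491 bases. Neither call held with a length offset, and leaving out a sample ended the call in 8 of 12 fits at 2 kPa (adjusted p up to 0.158) and, at 20 kPa, without 20-kPa elastic replicate 2 or 3 or 20-kPa viscoelastic replicate 2 or 3 (adjusted p = 0.0522 to 0.0946).

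Psmf1, an inhibitor of the core, was at 26.3, 26.8 and 26.6 CPM on elastic and 29.2, 30.01 and 28.7 CPM on viscoelastic gels of 2 kPa. Psmf1 measured 27.7, 25.3 and 24.9 CPM on elastic and 30.7, 31.4 and 29.96 CPM on viscoelastic gels of 20 kPa. It rose at 20 kPa by 0.24 ± 0.06 (SE) (edgeR adjusted p = 0.004504), and this call held under every alternative. Its principal transcript has 3809 bases.

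**Figure D5:**
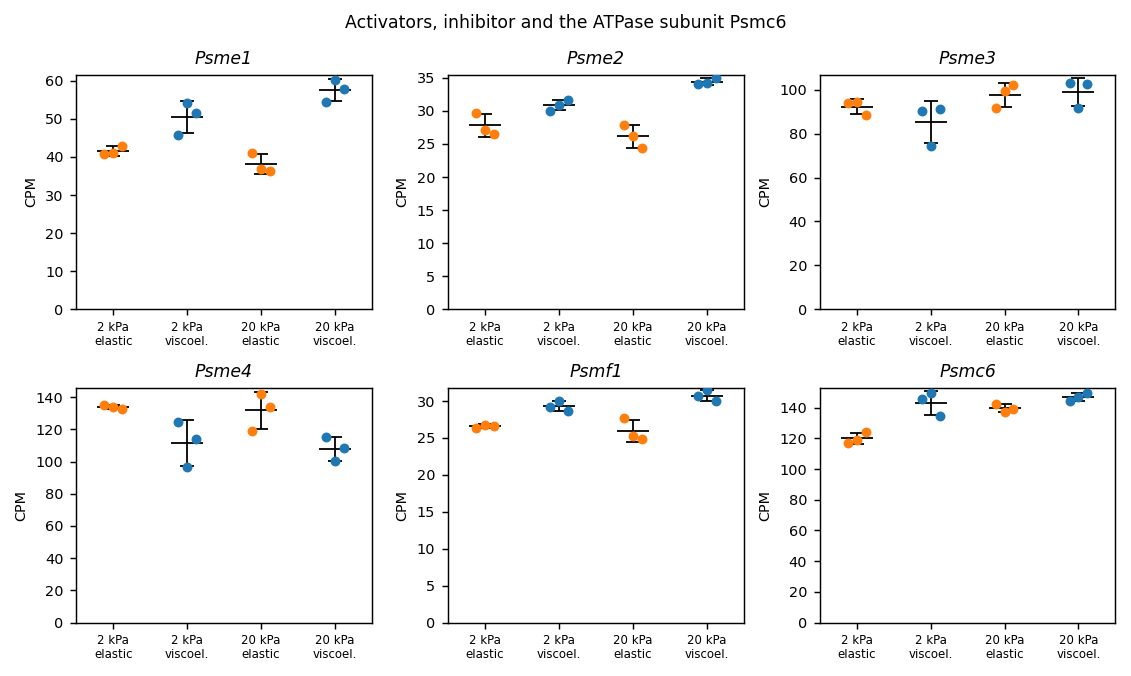
CPM of the activator genes Psme1 to Psme4, the inhibitor gene Psmf1 and the ATPase gene Psmc6 in each sample (points, 3 a group) with mean ± SD, each axis from 0. Psme1 lies at 36.3 to 41.1 CPM on 20-kPa elastic and at 54.5 to 60.2 CPM on 20-kPa viscoelastic gels, and Psme4 at 119 to 142 and 100.3 to 115 CPM.

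The 7 chaperones among the members help to assemble the particles and are not part of the finished protease. Psmd9, a base chaperone, was at 26.1, 26.95 and 27.3 CPM on elastic and 27.7, 29.3 and 28.5 CPM on viscoelastic gels of 2 kPa. Psmd9 measured 27.5, 26.5 and 26.5 CPM on elastic and 31.4, 31.02 and 30.6 CPM on viscoelastic gels of 20 kPa, and rose at 20 kPa by 0.21 ± 0.05 (SE) (edgeR adjusted p = 0.00689), a call that held under every alternative. Its exons share 1849 bases with Gm26745 on the opposite strand. Psmd5, another base chaperone, was at 53.6, 52.3 and 53.2 CPM on elastic and 53.8, 49.7 and 51.7 CPM on viscoelastic gels of 2 kPa. Psmd5 measured 58.8, 58.4 and 63.8 CPM on elastic and 58.3, 54.99 and 58.2 CPM on viscoelastic gels of 20 kPa. It had a value of -0.08 ± 0.05 (SE) at 20 kPa and rose from 2 to 20 kPa on elastic gels by 0.19 ± 0.05 (SE) (edgeR adjusted p = 0.0345), a call lost without any 2-kPa elastic sample or 20-kPa elastic replicate 2 or 3 (adjusted p = 0.0521 to 0.167). Psmd10 was at 16.8, 18.3 and 19.9 CPM on elastic and 20.6, 19.3 and 19.7 CPM on viscoelastic gels of 2 kPa. Psmd10 measured 18.8, 20.5 and 18.4 CPM on elastic and 20.6, 21.04 and 21.6 CPM on viscoelastic gels of 20 kPa, without a call.

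The core chaperones Psmg1 to Psmg4 were not called in any comparison. Psmg4 was at 3.43, 2.52 and 3.18 CPM on elastic and 3.53, 2.95 and 2.62 CPM on viscoelastic gels of 2 kPa. Psmg4 measured 3.13, 3.26 and 2.93 CPM on elastic and 4.26, 3.67 and 4.04 CPM on viscoelastic gels of 20 kPa, with all 3 samples on 20-kPa viscoelastic gels above the other 9 and a log2 fold change of 0.36 ± 0.14 (SE) at 20 kPa (edgeR adjusted p = 0.0594). Psmg1 was at 15.2, 15.5 and 17.5 CPM on elastic and 17.1, 17.3 and 18.6 CPM on viscoelastic gels of 2 kPa. Psmg1 measured 17.2, 16.2 and 17.4 CPM on elastic and 19.5, 17.02 and 18.5 CPM on viscoelastic gels of 20 kPa. Psmg2 was at 21.5, 23.2 and 22.1 CPM on elastic and 21.4, 23.02 and 22.1 CPM on viscoelastic gels of 2 kPa. Psmg2 measured 24.2, 22.03 and 23.9 CPM on elastic and 23.8, 24.5 and 24.97 CPM on viscoelastic gels of 20 kPa. All 4 genes had values above 0 for viscoelastic against elastic gels at 20 kPa, from 0.05 for Psmg3 to 0.36 for Psmg4. Psmg3, whose exons share 280 bases with Gm26938 on the same strand, was at 4.26, 4.09 and 4.91 CPM on elastic and 5.16, 4.32 and 4.44 CPM on viscoelastic gels of 2 kPa. Psmg3 measured 4.598, 5.34 and 4.41 CPM on elastic and 5.15, 4.92 and 4.79 CPM on viscoelastic gels of 20 kPa.

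Both tissue-specific core genes were at the edge of detection. Psma8, known from the testis, had 7 to 15 counts per sample (0.168 to 0.367 CPM) and was not called. Psmb11, the thymus subunit, had 0 to 2 counts per sample and did not pass the filter on low counts, so 48 of the 49 members were tested. Of the partner genes, Psme3ip1, which encodes a protein that binds the nuclear activator, was at 40.7, 41.4 and 41.4 CPM on elastic and 44.9, 46.7 and 45.8 CPM on viscoelastic gels of 2 kPa. Psme3ip1 measured 42.6, 40.4 and 37.1 CPM on elastic and 51.98, 46.9 and 51.2 CPM on viscoelastic gels of 20 kPa, and rose at 20 kPa by 0.32 ± 0.06 (SE) (edgeR adjusted p = 0.001195), while Psmc3ip, a meiotic recombination partner, was at 3.60 to 5.43 CPM without a call. The 5 pseudogenes had at most 26 counts in a sample.

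Of 9 further subunits and partners of the proteasome, 4 rose and 1 fell on viscoelastic gels at 20 kPa, where 17.4% of all genes rose and 16.1% fell. Sem1, the smallest subunit of the lid, was at 62.9, 62.04 and 59.1 CPM on elastic and 68.1, 64.4 and 69.7 CPM on viscoelastic gels of 2 kPa. Sem1 measured 63.6, 62.2 and 59.6 CPM on elastic and 77.5, 73.8 and 85.8 CPM on viscoelastic gels of 20 kPa, and rose by 0.35 ± 0.06 (SE) (edgeR adjusted p = 0.000727). The core chaperone Pomp (0.25 ± 0.05 (SE)), the nuclear import factor Akirin2 (0.19 ± 0.06 (SE)) and the activating factor Zfand5 (0.21 ± 0.07 (SE)) also rose, and Ecpas, an adaptor of the protease, fell by 0.17 ± 0.06 (SE) on the log2 scale. At 2 kPa none of the 9 was called by edgeR and 1 by DESeq2, with 2 at an unadjusted p under 0.05 (4968 of all 14542 genes). From 2 to 20 kPa, the deubiquitinases Uchl5 (0.29 ± 0.07 (SE)) and Usp14 (0.21 ± 0.06 (SE)) rose on elastic gels, and Uchl5 (0.38 ± 0.07 (SE)) on viscoelastic gels. Paaf1 was not analysed here.

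Of 12 genes for ubiquitin and the delivery of substrates that were followed, 2 rose and none fell on viscoelastic gels at 20 kPa, a share of risers near the 17.4% of all genes (16.1% fell). These were the ubiquitin genes Ubb (0.28 ± 0.08 (SE), edgeR adjusted p = 0.0187) and Rps27a, a fusion with a ribosomal protein (0.36 ± 0.06 (SE), adjusted p = 0.000433). At 2 kPa Rps27a rose (0.34 ± 0.06 (SE)) and Nploc4, a cofactor of the segregase, fell by 0.26 ± 0.09 (SE). On elastic gels Rps27a (0.20 ± 0.06 (SE)) and the shuttle factor gene Rad23b (0.22 ± 0.06 (SE)) rose from 2 to 20 kPa. On viscoelastic gels, edgeR called none of the 12 with stiffness and DESeq2 called 1, with 2 at an unadjusted p under 0.05 (2768 of all 14542 genes).

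The transcription factor gene Nfe2l1 was highest on 2-kPa elastic gels. It was at 399.8, 407 and 380.4 CPM on elastic and 323, 352 and 330.0 CPM on viscoelastic gels of 2 kPa. Nfe2l1 measured 339, 328 and 345 CPM on elastic and 347, 363 and 350.3 CPM on viscoelastic gels of 20 kPa. The 2-kPa elastic samples were above all 9 others, so that Nfe2l1 fell on viscoelastic gels at 2 kPa by 0.24 ± 0.06 (SE) on the log2 scale (edgeR adjusted p = 0.00924) and with stiffness on elastic gels by 0.23 ± 0.06 (SE) (adjusted p = 0.0153), while the value at 20 kPa was 0.07 ± 0.06 (SE) (adjusted p = 0.395). The difference of its stiffness effects was 0.31 ± 0.08 (SE) (adjusted p = 0.0325). Nfe2l2 fell at 2 kPa by 0.21 ± 0.05 (SE) (edgeR adjusted p = 0.0125). Of the other regulators, the subunit gene Nfyb of the CCAAT-binding factor rose at 2 kPa (0.28 ± 0.07 (SE)) and with stiffness on elastic gels (0.23 ± 0.07 (SE)), the protease gene Ddi2 fell with stiffness on elastic gels by 0.17 ± 0.05 (SE), and Ngly1, which processes NFE2L1, rose at 20 kPa (0.19 ± 0.06 (SE)). Nfya and Nfyc were not called, and neither edgeR nor DESeq2 called any of the 7 with stiffness on viscoelastic gels. There edgeR found 1.58% of all genes higher and 0.695% lower. None of the 7 was at an unadjusted p under 0.05 there, beside 2768 of all 14542 genes. At 2 kPa 1 of the 7 rose and 2 fell, beside 8.77% and 11.1% of all genes. With stiffness on elastic gels 1 rose and 2 fell, beside 6.81% and 7.14%. At 20 kPa 1 rose, beside 17.4%.

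The genes of antigen presentation and of the interferon response, to which the immunoproteasome belongs, were followed as well. Of 16 tested, 1 rose and 2 fell on viscoelastic gels at 20 kPa, beside 17.4% and 16.1% of all genes. B2m, the light chain of class I molecules, was at 621, 596 and 603 CPM on elastic and 578, 745 and 568 CPM on viscoelastic gels of 2 kPa. B2m measured 609, 488 and 536 CPM on elastic and 644, 747 and 685 CPM on viscoelastic gels of 20 kPa, and rose by 0.35 ± 0.10 (SE) (edgeR adjusted p = 0.0181). Nlrc5, the activator of class I genes, fell by 0.46 ± 0.14 (SE) on the log2 scale (adjusted p = 0.0233) and the interferon-induced gene Rsad2, at 0.0979 to 1.03 CPM, by 1.22 ± 0.38 (SE) (adjusted p = 0.0226).

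Tapbp, which loads peptides onto class I molecules, was at 221, 193 and 197 CPM on elastic and 137, 182 and 149 CPM on viscoelastic gels of 2 kPa. Tapbp measured 157, 135 and 135 CPM on elastic and 158, 178 and 152 CPM on viscoelastic gels of 20 kPa. As for Nfe2l1, its 2-kPa elastic samples were above all 9 others. Tapbp fell at 2 kPa by 0.39 ± 0.10 (SE) on the log2 scale (edgeR adjusted p = 0.0133) and with stiffness on elastic gels by 0.52 ± 0.10 (SE) (adjusted p = 0.00313), and the difference of its stiffness effects was 0.58 ± 0.14 (SE) (adjusted p = 0.0211). Erap1, a peptide-trimming protease, fell at 2 kPa by 0.29 ± 0.05 (SE) and with stiffness on elastic gels by 0.21 ± 0.05 (SE), and Rsad2 rose with stiffness on elastic gels (1.95 ± 0.42 (SE), adjusted p = 0.00701). The class I genes H2-K1 and H2-D1 and the interferon-pathway genes Irf1, Irf9 and Isg15 were not called in any comparison. Isg15 was highest in 20-kPa viscoelastic replicate 2 (8.87 CPM, with 2.13 and 3.13 CPM in its other replicates), the sample that was also highest for Psmb8 and Psmb9. Isg15 is a single gene of the list, and Rsad2 of the same list fell on viscoelastic gels at 20 kPa. The other interferon genes are not given by sample here, and a link between these genes in that sample was not tested.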

How the data were processed

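Poly(A) RNA of mouse ear fibroblasts was sequenced in 12 samples, 3 on each of 4 gels. Per the study's methods, the authors ran Trimmomatic, mapped reads to mm10 with STAR and used featureCounts with GENCODE genes. They deposited raw counts, not normalized, and tested them with DESeq2. The annotation release, strandedness and treatment of multi-mapping reads are not given in the sources used here.

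Here, counts were tested with edgeR 4.0.16 (R 4.3.3): filterByExpr (minimum count 10, total 15) kept 14542 of 33246 genes, TMM scaled the libraries, and a quasi-likelihood model with 1 coefficient a group was fitted to all 12 samples, with Benjamini-Hochberg adjustment over all tested genes and a threshold of 0.05. CPM values are TMM-normalized. The script was tested on simulated counts. Positions and lengths come from a GENCODE annotation of GRCm38, the build of mm10, and promoter windows from RefSeq. Mouse chromosome 18 sequences are not shown. Some genes of the pathway lists are not reported here and were left out of the counts of those lists. Alternatives were DESeq2 1.42.0, its size factors, total counts alone, no filter, the compared groups alone, a replicate block, offsets for length and GC content and each sample left out. An offset for the length of the principal transcript was added after the data were seen. Values in every sample were given for the catalytic and activator genes and for the lowest and highest gene of each class in a comparison. Subunit classes, lists and motifs were chosen with earlier results of these data known. Totals were 36626221 to 43612804 counts, which limits Psmb9 to 21 to 64 counts a sample.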

Additional observations from a re-analysis of the deposited data

Results flagged for a closer look

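For 3 genes the change from 2 to 20 kPa differed between viscoelastic and elastic gels by a test of the difference itself (edgeR interaction term). They were 1 of the 48 members tested, 1 of 7 regulators of subunit genes and 1 of 16 genes of antigen presentation and interferon. None of the 9 further subunits and partners or of the 12 genes for ubiquitin and delivery passed. Of all 14542 genes tested, 1100 passed. For Psmb9 the difference was 1.18 on the log2 scale (viscoelastic minus elastic, adjusted p = 0.0337), with the gene lower in 3 of 3 samples on 20-kPa elastic gels than in any sample on 2-kPa elastic gels. Over the alternatives its adjusted p ran from 0.0215 to 0.0899. For Tapbp the difference was 0.58 (adjusted p = 0.0211) and for Nfe2l1 0.31 (adjusted p = 0.0325), and in both genes the 3 samples on 2-kPa elastic gels were higher than the 9 others. Groups of 3 were too small to test for single samples that stand apart.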

How the results depend on the processing

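Of 37 calls of single members, 8 held under every alternative: Psmb1 at 2 kPa, and Psma2, Psmb1, Psmb9, Psme1, Psme2, Psmf1 and Psmd9 at 20 kPa. Called members for viscoelastic against elastic gels at 2 kPa (8) became 4 with the compared groups alone, 3 with the replicate block with length and GC offsets and 5 with the principal transcript length offset (3 to 9 without single samples). At 20 kPa, 22 became 11 with the gene length offset, 10 with the replicate block with length and GC offsets and 10 with the principal transcript length offset (13 to 23). For 20 against 2 kPa on elastic gels, 4 became 2 without the filter, 7 with DESeq2, 2 with the replicate block and 2 with the replicate block with both offsets (0 to 6). On viscoelastic gels, 2 became 1 without the filter, 7 with DESeq2, and 0 with the compared groups alone, the replicate block, the gene length offset, the replicate block with both offsets and the principal transcript length offset (0 to 3). For the difference of stiffness effects, 1 became 0 with the replicate block, also with both offsets (0 to 2). Except where a setting itself drops samples, the cause was not tested. Over 18 pairs of same-numbered samples the correlation of deviations ran from -0.20 to 0.31, over 0.1 in 2. Both were between 2-kPa and 20-kPa viscoelastic gels (0.18 for replicate 1 and 0.31 for replicate 2, with 0.048 for replicate 3). Whether replicate numbers pair the viscoelastic samples was not tested further. Without offsets the block gave 6 called members at 2 kPa and 20 at 20 kPa. Psmb9 had at most 64 counts a sample, and edgeR's common coefficient of variation between replicates was 7.50%.

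Medians over the members turned to -0.0063 at 2 kPa with the replicate block with both offsets, and with the principal transcript offset to -0.012 at 2 kPa, -0.010 at 20 kPa and -0.0044 for the difference of stiffness effects. The following single values turned sign. With the gene length offset they were Psmb5 (-0.069) and Psmb9 (-0.019) at 2 kPa and Psma5 (-0.035), Psma6 (-0.031) and Psme3 (-0.068) at 20 kPa. With the GC offset, Psme3 at 20 kPa was -0.0018. With the replicate block with both offsets they were Psmb5 (-0.011) and Psmb7 (-0.046) at 2 kPa, Psma5 (-0.044), Psma6 (-0.040) and Psme3 (-0.078) at 20 kPa and Psme4 (0.012) in the difference of stiffness effects. With the principal transcript offset they were Psmb5 (-0.064), Psmb7 (-0.065) and Psmb9 (-0.085) at 2 kPa and Psma5 (-0.00028), Psma6 (-0.020), Psmb3 (-0.028), Psmb4 (-0.014), Psmb7 (-0.074) and Psme3 (-0.020) at 20 kPa. The same offset turned Psmb5 (-0.0014) and Psme4 (0.014) for stiffness on elastic gels, Psme4 (0.0019) on viscoelastic gels, and Psmb6 (-0.0012) and Psmb7 (-0.0087) in the difference of stiffness effects. Without single samples, values ran across 0 for Psmb9 at 2 kPa (-0.11 to 0.13), Psme3 at 20 kPa (-0.041 to 0.073), Psmb5 (-0.024 to 0.077), Psmb6 (-0.0092 to 0.060) and Psme4 (-0.081 to 0.062) with stiffness on elastic gels, Psmb8 (-0.020 to 0.34) and Psme4 (-0.14 to 0.038) on viscoelastic gels, and Psme4 (-0.12 to 0.060) in the difference.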
